A study of Mus musculus with 8 samples.

Results

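The genes described here, 8 feedback inhibitors of MAP kinase signalling, are the dual-specificity phosphatase genes Dusp1, Dusp2, Dusp4, Dusp5, Dusp6 and Dusp10 and the Sprouty genes Spry1 and Spry2. They were chosen by gene symbol, as 8 of the 19337 symbols found in either of the 2 deposited tables, and all 8 are listed in both. The choice was made with genotype differences of these same libraries already known, so the fold changes and call counts of the 8 genes below are descriptions and no p-value is given for them.

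The RNA came from mouse CD8+ T cells of the OT-I line, whose transgenic T cell receptor recognises a peptide of ovalbumin, isolated from B16-OVA tumors, a melanoma line that expresses ovalbumin. Naive OT-I cells labelled Zbtb32-/-, for a knockout of the zinc finger transcription factor Zbtb32, and WT OT-I cells shared each B6 host, into which both had been placed 1 day ahead of the tumor cells, and they were sorted 30 days after those tumor cells were injected under the skin. The 4 groups are Tim-3+ terminally exhausted cells (Ttex) of the Zbtb32 knockout and of WT, and all OT-I cells as sorted, called total OT-I cells below, of the Zbtb32 knockout and of WT, with 2 libraries each. The ages of the mice, whether animals were pooled, the sorting markers of the OT-I cells and the deleted part of Zbtb32 are not given in the sources used here. Replicates are not tied to separate animals, so every test measures only the spread between these libraries, which may be technical. For total OT-I cells the limma fit took that spread from genes at the same level, not from each gene's own libraries.

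T cell receptor and growth factor signals pass through Ras, Raf and MEK to the MAP kinase ERK, and through parallel kinase chains to JNK and p38. The signal switches on its own inhibitors. Dual-specificity phosphatases remove phosphate from both the threonine and the tyrosine of the MAP kinase activation loop, and Sprouty proteins act higher up, between the receptor and Raf. In T cells several of these genes are induced within a short time of receptor engagement, and their products limit how long the kinases stay active.

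Zbtb32 RNA was no lower under the KO label. It was at 94.9 and 73.0 FPKM (fragments scaled by gene length and library depth) in KO-labelled libraries against 79.8 and 87.1 FPKM in WT-labelled libraries of total OT-I cells, and at 6822 and 5715 against 3976 and 3951 normalized counts in Ttex cells (limma adjusted p = 0.183). Groups are therefore called KO-labelled and WT-labelled throughout. T cell genes were abundant in every library. In total OT-I cells Cd3e, a subunit of the T cell receptor complex, was at 92.2 and 105.5 FPKM in KO-labelled and 143 and 131.5 FPKM in WT-labelled libraries. Recovered depth, that is the reads worked back from the deposited values, was 51.65 to 59.19 M reads per library for Ttex cells and 18.6 to 21.09 M for total OT-I cells. The 8 genes rested on 191 to 24827 recovered reads per library in Ttex cells and on 142 to 3655 in total OT-I cells.

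Up to 250 bases before the RefSeq transcription start could be read for 7 of the 8 genes (all except Dusp4), and 5 are shown because the results turn on their genes: Dusp2, Dusp5 and Spry2 were lower in KO-labelled total OT-I cells, and Dusp1 and Dusp6 were the most abundant of the 8 there. They are RefSeq sequences on GRCm38.p6, printed 5′ to 3′ on the gene's strand, at chr2:127335909-127336158 (plus strand, Dusp2), chr19:53528895-53529108 (plus, Dusp5), chr14:105896820-105897069 (minus, Spry2), chr17:26508520-26508722 (minus, Dusp1) and chr10:99262981-99263230 (plus, Dusp6). Capitals mark matches to the GC box GGGCGG, to the cyclic AMP response element TGACGTCA and to the CArG box, the site bound by serum response factor, on either strand. Bases that GENCODE annotates as exon of the same gene are left out, which takes 36 bases next to the RefSeq start from the Dusp5 window and 47 from that of Dusp1, while motif positions are counted from the RefSeq start. The Dusp1 window lies inside the GENCODE span of that gene, which a longer model carries further upstream.
Dusp2: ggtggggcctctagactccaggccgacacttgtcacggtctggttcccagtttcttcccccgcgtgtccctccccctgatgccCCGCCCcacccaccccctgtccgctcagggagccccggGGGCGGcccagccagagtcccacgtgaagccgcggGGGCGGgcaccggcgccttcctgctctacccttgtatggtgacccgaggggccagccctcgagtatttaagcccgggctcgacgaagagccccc
Dusp5: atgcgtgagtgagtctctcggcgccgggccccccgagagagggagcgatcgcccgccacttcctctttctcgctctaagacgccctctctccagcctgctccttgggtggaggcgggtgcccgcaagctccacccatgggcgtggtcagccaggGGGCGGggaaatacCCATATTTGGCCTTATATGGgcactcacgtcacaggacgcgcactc
Spry2: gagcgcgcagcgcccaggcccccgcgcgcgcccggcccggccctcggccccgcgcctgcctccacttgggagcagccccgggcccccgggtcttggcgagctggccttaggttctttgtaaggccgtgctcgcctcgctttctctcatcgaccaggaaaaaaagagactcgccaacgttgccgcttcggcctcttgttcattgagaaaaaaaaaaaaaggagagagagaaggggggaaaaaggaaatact
Dusp1: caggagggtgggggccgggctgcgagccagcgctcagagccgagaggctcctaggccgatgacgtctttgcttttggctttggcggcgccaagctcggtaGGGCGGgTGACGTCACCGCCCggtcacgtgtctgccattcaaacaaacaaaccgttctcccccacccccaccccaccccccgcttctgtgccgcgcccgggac
Dusp6: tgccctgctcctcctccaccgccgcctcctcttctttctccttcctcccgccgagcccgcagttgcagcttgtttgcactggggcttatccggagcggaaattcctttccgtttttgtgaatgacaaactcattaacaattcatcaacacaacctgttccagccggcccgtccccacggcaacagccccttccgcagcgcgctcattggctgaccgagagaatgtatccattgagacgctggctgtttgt

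A pair of adjoining CArG boxes lay at 82 to 73 and 72 to 63 bases before the start of Dusp5, and no other of the 7 windows held one, where 1.47% of 32851 RefSeq promoter windows did. The cyclic AMP response element was found in Dusp1 alone of the 7, at 143 to 136 bases before the start, where 1.55% of all windows held it. GC boxes were present in Dusp1, Dusp2, Dusp5, Dusp10 and Spry1, against 32.7% of all windows. The 7 windows held 56.4 to 70.4% G and C, above the median of 52.4% over all promoters, and the part of base composition was not tested. The E-box CACGTG, not in capitals, was found in Dusp1 and Dusp2 (6.02% of all windows). None of the 7 windows held the AP-1 site TGANTCA (6.75%), the ETS site CCGGAAG (6.91%) or the NFAT core TGGAAA (18.6%). Spry2 and Dusp6 held none of the 7 motifs searched, so no motif was common to Dusp2, Dusp5 and Spry2. These are matches of letters only. The printed Dusp5 window also lies within an exon of the antisense gene AC137853.2, which overlaps the first exon of Dusp5, and without known strandedness reads of the pair cannot be told apart. Dusp1, Dusp10 and Spry1 also overlap other annotated genes (Ergic1, 1700056E22Rik and Gm42922).

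In total OT-I cells Dusp2 and Dusp5 stood at 29.6 and 34.5% of their WT-labelled mean in the KO-labelled libraries, Spry2 at 55.1%, and the libraries of the other 5 genes overlapped. Dusp2 encodes a nuclear phosphatase of ERK and p38 that activated lymphocytes induce. It was at 3.30 and 3.57 FPKM in KO-labelled libraries against 11.4 and 11.9 FPKM in WT-labelled libraries. Both KO-labelled libraries were low and the groups did not overlap. The log2 fold change of Dusp2 was -1.51 (SE 0.17), on the log2(FPKM + 1) scale used for every fold change in this population, which understates changes of genes with low values.

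Dusp5 encodes a nuclear phosphatase that acts on ERK and not on JNK or p38. It was at 9.53 and 8.35 FPKM in KO-labelled libraries and at 25.6 and 26.2 FPKM in WT-labelled libraries. The replicates of each label lay close together and the groups were far apart, with a log2 fold change of -1.44 (SE 0.19). The Dusp5 values rest on 506 and 480 recovered reads in KO-labelled libraries and 1226 and 1299 in WT-labelled libraries.

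Spry2, an inhibitor of signalling from receptors to Ras and Raf, was at 21.9 and 20.3 FPKM in KO-labelled libraries against 44.6 and 32.0 FPKM in WT-labelled libraries. The groups did not overlap, but the WT-labelled libraries were unequal. The log2 fold change of Spry2 was -0.81 (SE 0.21), and the gene was no longer called without WT-labelled replicate 1, where it was -0.58. Its paralog Spry1 was at 4.28 and 4.01 FPKM in KO-labelled libraries and 4.13 and 4.62 FPKM in WT-labelled libraries, with overlapping groups and a log2 fold change of -0.06 (SE 0.16) that turned positive with libraries centred on their median gene.

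The remaining phosphatase genes overlapped between the labels. Dusp6, whose product is a cytoplasmic phosphatase specific for ERK, was at 52.6 and 43.9 FPKM in KO-labelled libraries and 36.8 and 47.0 FPKM in WT-labelled libraries (log2 fold change 0.20, SE 0.22). Dusp1 encodes a nuclear phosphatase of p38, JNK and ERK that stress and many growth signals induce. It was at 51.4 and 29.0 FPKM in KO-labelled libraries against 43.2 and 49.5 FPKM in WT-labelled libraries. KO-labelled replicate 2 was the lowest of the 4 and replicate 1 the highest, so the log2 fold change of -0.25 (SE 0.21) turned to 0.15 without KO-labelled replicate 2 and to -0.66, past the threshold, without KO-labelled replicate 1. Dusp4, a nuclear phosphatase gene related to Dusp1, was at 24.2 and 19.7 against 18.3 and 23.0 FPKM (0.08, SE 0.20), and Dusp10, whose product acts on JNK and p38, at 19.5 and 19.6 against 19.1 and 20.98 FPKM (-0.03, SE 0.20), KO-labelled values before WT-labelled ones. The Dusp10 value turned positive with that centring.

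**Figure D1:**
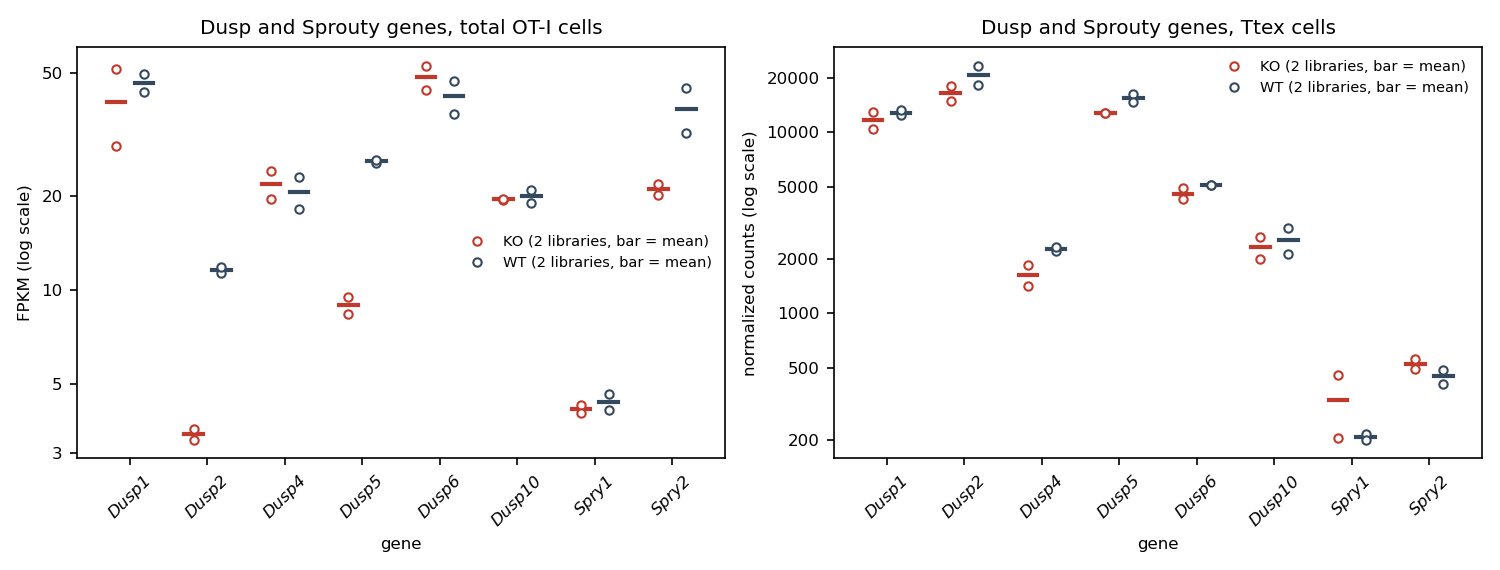
Value of each of the 8 genes in each library, KO-labelled in red left of WT-labelled in dark blue, as FPKM in total OT-I cells (left) and normalized counts in Ttex cells (right), both on log axes. Circles are libraries and bars are means of 2. In total OT-I cells Dusp2, Dusp5 and Spry2 are apart between the labels, whereas in Ttex cells no gene shows a gap of that size and Spry1 has 1 high KO-labelled library.

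Each table was fitted with limma over all genes that passed a filter on low values, and a gene was called at an adjusted p under 0.05. All 8 genes passed the filter in both populations. In total OT-I cells 3 of the 8 (Dusp2, Dusp5 and Spry2) were called lower and 0 higher, beside 30.4% lower and 2.45% higher of all 9574 tested genes. The same 3 had both KO-labelled values below both WT-labelled values, which held for 56.6% of all tested genes, and 0 had both above, against 9.43% of all genes. The median log2 fold change of the 8 genes was -0.16, beside -0.24 over all tested genes. With each library centred on its median gene the same 3 genes were called lower, with 11.9% of all genes lower and 10.7% higher, and the log2 fold changes of Dusp2, Dusp5 and Spry2 were -1.26, -1.19 and -0.56. The authors' deposited table, which holds their DESeq2 output, also calls these 3 genes lower, with log2 fold changes of -1.70 for Dusp2 (SE 0.23), -1.48 for Dusp5 (SE 0.19) and -0.81 for Spry2 (SE 0.22), and 15.4% of its genes with an adjusted p are called lower and 5.03% higher.

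Among 9 T cell markers in total OT-I cells, Cd3d and Cd3g were called lower and 0 higher (0 and 0 after centring), while Lck, Cd5 and Ptprc overlapped between the labels. The 9 markers summed to 2521 and 2128 FPKM in KO-labelled libraries against 3022 and 2852 FPKM in WT-labelled libraries. Markers of other cells moved with the labels too. In total OT-I cells markers of macrophages, monocytes and dendritic cells were lower, with calls for 14 of the 14 tested (16 listed, none at 0). Of these, C1qc, Csf1r and Adgre1 had KO-labelled means below the filter and passed it only through their WT-labelled libraries. The summed level of the 16 was 474 and 400 FPKM in KO-labelled libraries against 1057 and 967 FPKM in WT-labelled libraries. Lyz2, the lysozyme gene of myeloid cells, was at 26.4 and 19.1 against 78.3 and 72.0 FPKM. Melanoma markers summed to 20.4 and 18.3 against 11.1 and 14.5 FPKM, with Pmel, Tyrp1, Dct and Slc45a2 called higher and Mlana lower of 5 tested. Red blood cell genes summed to 22.3 and 15.4 against 10.3 and 8.18 FPKM, with 4 of 4 tested called higher. Hba-a2, Hbb-bt and the melanoma marker Slc45a2 had WT-labelled means below the filter and passed it only through their KO-labelled libraries. In these bulk samples fewer cells of a type and less RNA per cell cannot be told apart, and the part of the markers in the Dusp and Spry values was not tested.

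The fold changes of Dusp2, Dusp5 and Spry2 lay nearer to 0 in Ttex cells and those of Dusp4, Dusp10 and Spry1 farther from it, and no difference between the populations was tested. Dusp2 had normalized counts of 18171 and 14964 in the KO-labelled pair and 23386 and 18250 in the WT-labelled pair, with groups that did not overlap but lay close, and a log2 fold change of -0.33 (SE 0.17). Dusp5 was at 12733 and 12745 against 16370 and 14651 normalized counts, KO-labelled before WT-labelled, without overlap (-0.28, SE 0.12). Dusp4 had the largest decrease of the 8, at 1424 and 1851 normalized counts in KO-labelled and 2209 and 2318 in WT-labelled libraries (-0.48, SE 0.17). Dusp6 was at 4266 and 4913 against 5130 and 5116 normalized counts (-0.16, SE 0.13).

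Dusp1 and Dusp10 overlapped between the labels in Ttex cells. Dusp1 had normalized counts of 10407 and 13007 in the KO-labelled pair and 12472 and 13229 in the WT-labelled pair (-0.14, SE 0.14), and Dusp10 at 2642 and 1989 against 2949 and 2142 (-0.13, SE 0.21). The Sprouty genes had positive fold changes here. Spry1 had normalized counts of 206 and 457 in the KO-labelled pair and 215 and 201 in the WT-labelled pair, so that the log2 fold change of 0.56 (SE 0.42) came from KO-labelled replicate 2 and was -0.01 without it. Spry2 had normalized counts of 490.2 and 562 in the KO-labelled pair and 410 and 489.8 in WT-labelled libraries (0.23, SE 0.24), which is a separation of less than 1 normalized count between the nearest libraries.

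Of the 8 genes 0 were called in Ttex cells by limma, beside 0.0239% of all 12559 tested genes, 0.00796% lower and 0.0159% higher. On recovered reads edgeR called 0 of the 8 and DESeq2 0, against 0.127% and 3.11% of all genes. Both KO-labelled values lay below both WT-labelled values for 4 of the 8 (Dusp2, Dusp4, Dusp5 and Dusp6) and above them for 1 (Spry2), where 28.2% of all genes lay below and 19.9% above. The median log2 fold change of the 8 was -0.15, beside -0.06 over all tested genes. In this population the macrophage markers lay the other way, with summed normalized counts of 104309 and 91218 in the KO-labelled pair, 45512 and 42214 in the WT-labelled pair, and 0 of 16 called by limma (3 higher by edgeR on recovered reads, and 3 with limma after centring). Red blood cell genes summed to 17857 and 10643 against 3412 and 2138, with a median log2 fold change of 2.32 and 0 of 5 called (5 at an unadjusted p under 0.05, 1 higher by edgeR and 1 after centring). The share of all genes at that unadjusted p is not given here. Melanoma markers summed to 55469 and 58484 against 26008 and 26468, with Pmel called higher of 8 tested (3 by edgeR and 3 after centring). The part of these markers in the Ttex values was not tested.

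**Figure D2:**
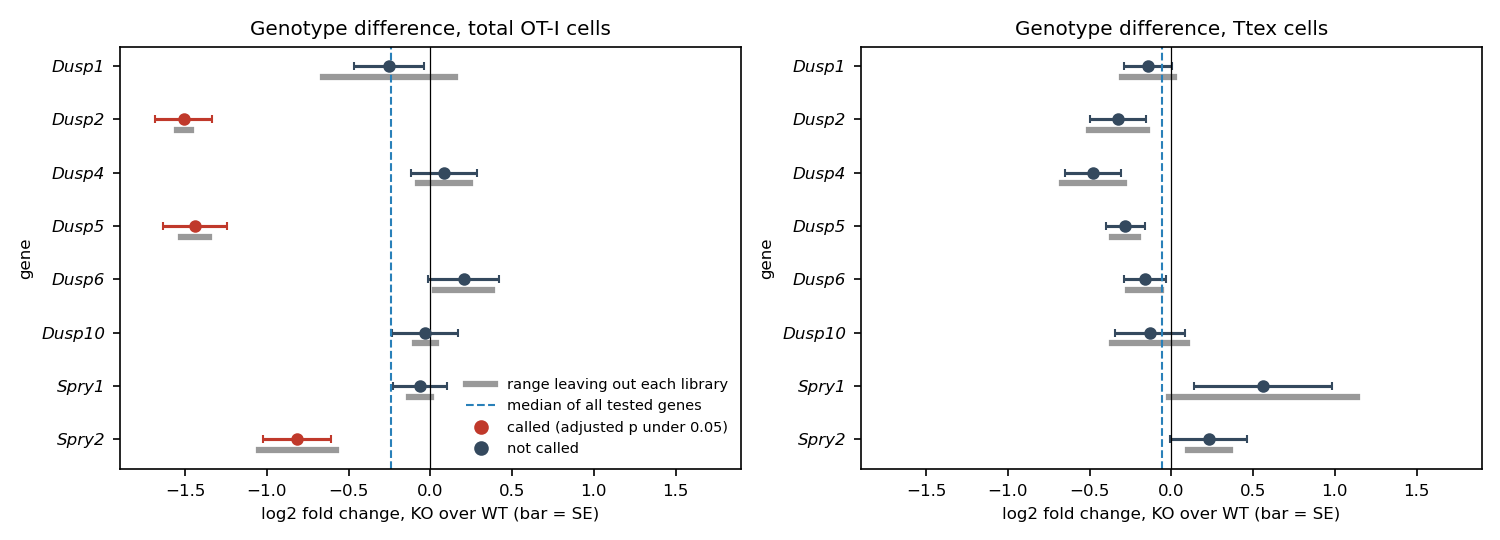
Log2 fold change of KO-labelled over WT-labelled libraries for the 8 genes in total OT-I cells (left) and Ttex cells (right), with the standard error as a bar, called genes in red, the grey band the range when each library is left out, and the dashed line the median of all tested genes. Dusp2 and Dusp5 lie at -1.51 and -1.44 with narrow bands on the left, while on the right every gene is uncalled and the widest band is that of Spry1, from -0.01 to 1.13.

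The order of the 8 genes by level per length differed between the populations, with Dusp2 first in Ttex cells and among the last in total OT-I cells. For this, normalized counts of Ttex cells were divided by gene length, as FPKM already are. In Ttex cells the order was Dusp2, Dusp5, Dusp1, Dusp6, Dusp10, Dusp4, Spry2 and Spry1 under both labels, and of the neighbours in it only Dusp10 and Dusp4 had overlapping libraries. The order was Dusp6, Dusp1, Dusp4, Spry2, Dusp10, Dusp5, Spry1 and Dusp2 in KO-labelled libraries of total OT-I cells, where Dusp6 overlapped with Dusp1 and Dusp4 with Spry2, and Dusp1, Dusp6, Spry2, Dusp5, Dusp4, Dusp10, Dusp2 and Spry1 in WT-labelled libraries, where Dusp1, Dusp6 and Spry2 overlapped in turn, as did Dusp4 and Dusp10.

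Expressed as a share of the per-length level of the 8 genes in each library, Dusp2 made up 44.4 and 37.6% in KO-labelled and 45.4 and 40.5% in WT-labelled Ttex libraries. The share of Dusp2 in total OT-I cells was 1.77 and 2.40% in KO-labelled and 5.60 and 5.51% in WT-labelled libraries. All 4 Ttex libraries were thus far above all 4 libraries of total OT-I cells. Spry2 had the opposite order, with 1.15 and 1.36% in KO-labelled and 0.763 and 1.04% in WT-labelled Ttex libraries, against 11.7 and 13.7% in KO-labelled and 22.0 and 14.9% in WT-labelled libraries of total OT-I cells. Among the 11264 genes with a level per length in both tables, Dusp2 stood at percentile 97.3 in Ttex cells and 57.9 in total OT-I cells, Dusp5 at 95.6 and 75.8, and Spry2 at 44.3 and 84.1. Dusp1 (93.0 in Ttex cells and 88.7 in total OT-I cells) and Dusp6 (84.0 and 89.0) moved less. Dusp5 and Dusp6, the nuclear and the cytoplasmic ERK phosphatase, changed places as well. Per length, the level of Dusp5 was 3.78 and 3.29 times that of Dusp6 in KO-labelled and 4.04 and 3.63 times in WT-labelled Ttex libraries, against 0.181 and 0.190 times in KO-labelled and 0.697 and 0.558 times in WT-labelled libraries of total OT-I cells. The tables were normalized separately and each population is a table of its own, so a difference between populations and one between the tables cannot be told apart and was not tested.

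**Figure D3:**
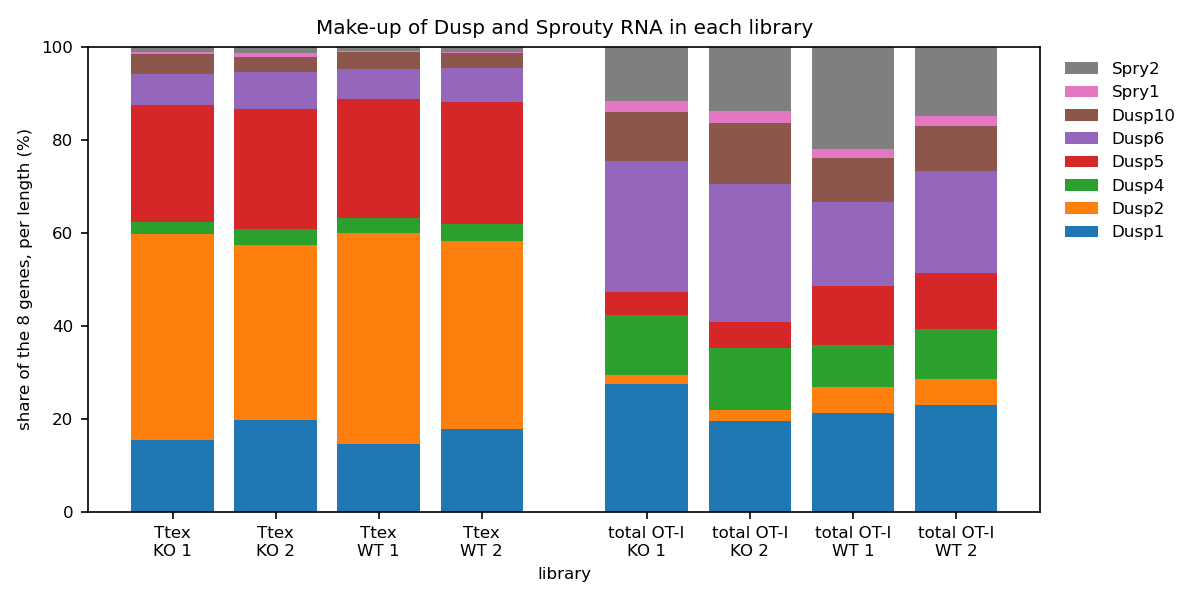
Share of each of the 8 genes in their summed level per length, in percent, stacked for each library, with Ttex libraries on the left and total OT-I libraries on the right, and KO-labelled before WT-labelled libraries within each. Dusp2 fills 37.6 to 45.4% of the Ttex bars and 1.77 to 5.60% of the others, where Dusp6, Dusp1 and Spry2 are larger.

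The genes around the feedback loop were described from 7 lists with 94 genes of the MAP kinase pathway and of T cell receptor inhibition, none of them among the 8. These lists too were chosen with earlier results of these data known. Called genes are named by largest fold change, so their adjusted p-values are descriptions and not fresh tests. The filter left 75 of these genes in total OT-I cells, of which 30 were called lower and 1 higher, beside 30.4% lower and 2.45% higher among all tested genes, and centring each library on its median gene turned this split to 16 lower and 10 higher. Their median log2 fold change was -0.30, beside -0.24 over all tested genes. In Ttex cells 0 of 89 tested were called by limma (12 at an unadjusted p under 0.05), 0 by edgeR and 2 by DESeq2 on recovered reads. Those 2, named after their values were seen, were Dusp18 and Rasgrp2, both higher. Of all genes limma called 0.0239%, edgeR 0.127% and DESeq2 3.11%. The share of all genes at an unadjusted p under 0.05 is not given here.

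Among 11 tested genes of other dual-specificity phosphatases and MAP kinase tyrosine phosphatases in total OT-I cells, 6 were called lower and 0 higher (1 and 1 after centring). Dusp19, an atypical member of the family, was at 4.47 and 4.39 FPKM in KO-labelled and 8.82 and 7.59 FPKM in WT-labelled libraries (log2 fold change -0.76, limma adjusted p = 0.000116). Dusp11, whose product acts on RNA, had a log2 fold change of -0.57 (limma adjusted p = 0.0111), Dusp28 of -0.54 (adjusted p = 0.00456) and Dusp12 of -0.47 (adjusted p = 0.0240). After centring Dusp19 was still called, but Dusp11, Dusp28 and Dusp12 were not. On recovered reads edgeR and DESeq2 called Dusp11 but not Dusp28 or Dusp12. Of the Sprouty and Spred relatives only Spred2, an inhibitor of Ras and Raf coupling, passed the filter, and only through its WT-labelled libraries, so no p-value is given. It was at 0.807 and 0.829 FPKM in KO-labelled against 1.70 and 1.16 FPKM in WT-labelled libraries (-0.41), and was not called after centring. In Ttex cells the most abundant of the phosphatase relatives were Dusp11 (-0.03) and the T cell phosphatase gene Ptpn7 (-0.19). Those of the Sprouty and Spred relatives were Spred2 (-0.56) and Spred1 (-0.35). None of these genes was called there (limma adjusted p of at least 0.468).

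Of the Ras to ERK route 8 of 17 tested genes were called lower and 0 higher in total OT-I cells (6 and 1 after centring). Grb2, the adaptor that brings the Ras activator SOS to receptors, was at 6.95 and 6.08 FPKM in KO-labelled libraries against 20.3 and 19.0 FPKM in WT-labelled libraries (-1.46, limma adjusted p = 6.69e-13). The ERK gene Mapk3 (-0.95, limma adjusted p = 1.90e-06) fell with it. The Ras gene Hras, at 0.574 and 0.473 FPKM in KO-labelled and 2.49 and 2.06 FPKM in WT-labelled libraries (-1.10), was above the filter only through its WT-labelled libraries. In Ttex cells the adaptor gene Lat (0.04), the most abundant of the route, was not called. Among the RasGAPs, which switch Ras off, Rasa1 fell by 1.19 on the log2 scale (limma adjusted p = 6.00e-12) and Rasa3 rose by 0.78 (adjusted p = 0.000535) in total OT-I cells, and the other 4 tested were not called (1 lower and 2 higher of the 6 after centring). In Ttex cells Rasal3 (-0.35) and Rasa1 (-0.24) were the most abundant and were not called.

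In the JNK and p38 route 9 of 14 tested genes were called lower and 0 higher in total OT-I cells (6 and 2 after centring). Mapkapk2, a kinase activated by p38, was at 9.25 and 7.88 FPKM in KO-labelled libraries against 23.7 and 26.5 FPKM in WT-labelled libraries (-1.45, limma adjusted p = 4.91e-12). The p38 gene Mapk14 (-1.18, adjusted p = 2.20e-09), Map3k7, which encodes the kinase TAK1 (-1.14, adjusted p = 1.57e-11), and the JNK kinase gene Map2k4 (-0.90, adjusted p = 7.72e-07) fell too. Mapkapk2 (-0.30) and Map2k3 (-0.18) were the most abundant of the route in Ttex cells and were not called.

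Genes that ERK signalling induces showed 3 of 11 tested called lower and 0 higher in total OT-I cells (2 lower and 2 higher after centring). They were Srf, the gene of the factor that binds CArG boxes (-0.79, limma adjusted p = 2.28e-05), Phlda1 (-0.73, adjusted p = 0.000178) and the AP-1 gene Fosl2 (-0.56, adjusted p = 0.00142). After centring Fosl2 was no longer called. Srf was at 3.22 and 2.78 FPKM in KO-labelled libraries against 5.38 and 6.44 FPKM in WT-labelled libraries. In Ttex cells Fos (0.19) and Ier2 (0.17) were the most abundant, at 12818 and 11854 against 11329 and 10252 normalized counts for Fos, and were not called. Other inhibitors of T cell receptor signalling had 2 of 15 called lower and 0 higher in total OT-I cells (0 lower and 2 higher after centring), the diacylglycerol kinase gene Dgkz (-0.69, limma adjusted p = 0.00380) and Rgs1, a regulator of G protein signalling (-0.70, adjusted p = 0.00622). In Ttex cells Dgkz (-0.28) and the phosphatase gene Ptpn6 (-0.23) were not called.

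**Figure D4:**
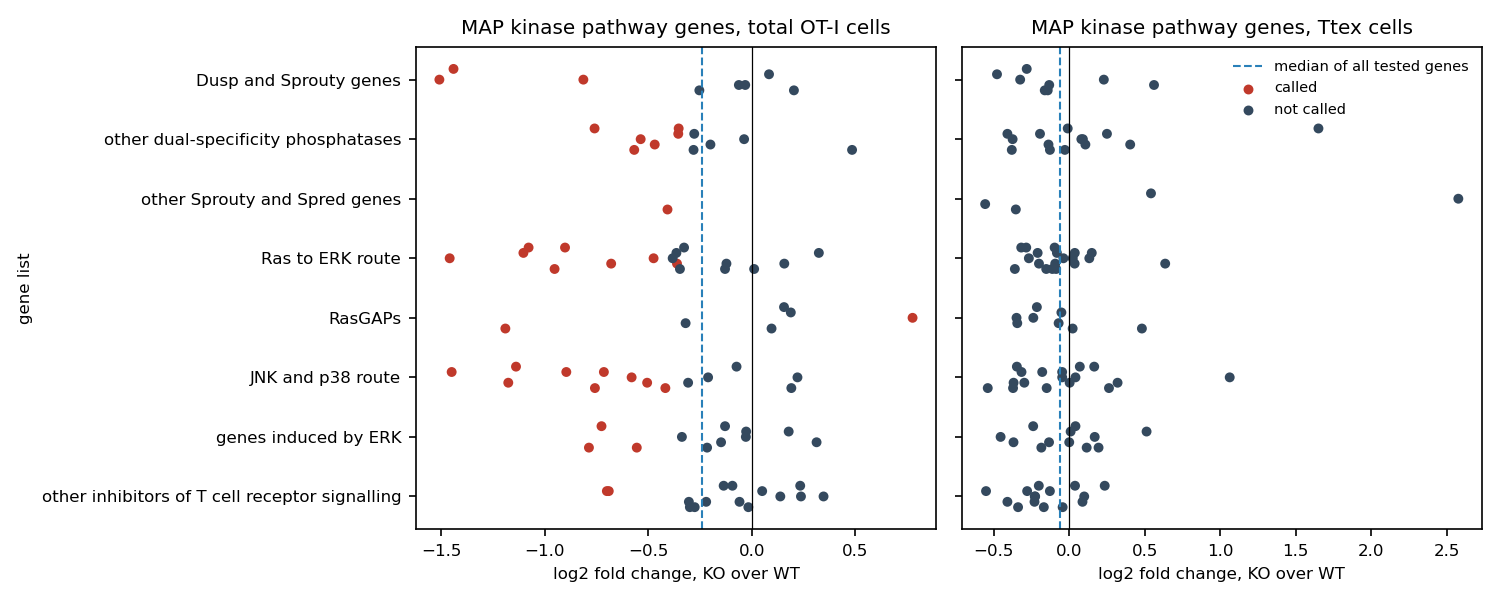
Log2 fold change of KO-labelled over WT-labelled libraries for each tested gene of the 8 Dusp and Sprouty genes and of 7 pathway lists, in total OT-I cells (left) and Ttex cells (right), with called genes in red and the dashed line at the median of all tested genes. The 2 panels have different horizontal scales. In total OT-I cells 30 list genes are called lower and Rasa3 higher, and in Ttex cells none of the listed genes is called.

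The genes whose pattern over the 4 libraries lay nearest to the mean pattern of the 8 were, in total OT-I cells, Mmd, Ubxn2a, Lmnb1, Tuba1c and Eef1a1, at Euclidean distances of 0.0297 to 0.0506 on the centred log2 scale. With 4 libraries this likeness is weak, since 661 of 5838 candidate genes lay within a distance of 0.2. In Ttex cells the nearest were Edem2, Ankrd40, Dus1l, Mxd4 and Bag2, at 0.0179 to 0.0244, with 1479 of 10677 candidates within 0.2.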

How the data were processed

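Polyadenylated RNA of 8 libraries was analysed, 2 in each of 4 groups. The mm10 build is given by the submitters' processing notes, as are DESeq2, RSEM, featureCounts, Bowtie2 and Trim Galore 0.4.4, with no role for any of them. The authors deposited 1 table per population. The authors' table for total OT-I cells (17495 genes) was deposited as values in the form of FPKM: the header names no unit, but after scaling by merged exon lengths from GENCODE M21 and by a divisor for each library, 98.3 to 98.4% of checked values lay within 0.1 of a whole read. That table also holds the authors' DESeq2 output, per the file headers: a mean signal (baseMean), log2 fold changes, a Wald score, p-values and adjusted p-values. The deposited Ttex table (13126 rows) holds a normalized signal, gene counts divided by a size factor, of which 100% of values lay within 0.01 step of a whole number. Since 173 of its rows stand at 1 step in every library, 1 may have been added to each count. The FPKM divisor was 1.12 and 1.25 times the recovered total in KO-labelled libraries and 0.960 and 0.949 times in WT-labelled libraries, which lowers the KO-labelled values.

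As neither table holds raw counts, each was fitted alone with limma 3.58.1 (limma-trend, two-sided, KO-labelled over WT-labelled) on log2(value + 1). Genes averaging below 1 FPKM or below 10 normalized counts were left out, p-values were adjusted by Benjamini-Hochberg over all tested genes, and the threshold was 0.05. The prior degrees of freedom were 4.48 in Ttex cells and infinite in total OT-I cells, where an SE is thus that of genes at the same level and not the gene's own spread. edgeR 4.0.16 and DESeq2 1.42.0 on recovered reads were alternatives. Members and lists were chosen with earlier results of these data known. Named are the 8 genes, the targeted gene, a few cell markers, up to 4 called genes by fold change of each list or else its 2 most abundant, and the 5 genes nearest in pattern. Some genes that this rule names are not reported here. Gene positions are GENCODE M21 on mm10, and promoters are RefSeq on GRCm38.p6.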

Additional observations from a re-analysis of the deposited data

Results flagged for a closer look

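Spry2 had a log2 fold change of -0.81 in total OT-I cells, with both KO-labelled libraries below both WT-labelled ones, and of 0.23 in Ttex cells, with both KO-labelled libraries above them. The same opposite order of every library was seen for Phlda1 (-0.73 in total OT-I cells and 0.12 in Ttex cells), for Ptpn7 (0.48 and -0.19) and for Rasa3 (0.78 and -0.21). It was also seen for the listed genes Dgka (0.35 and -0.23), Sla (0.23 and -0.20) and Rasgrp2 (-0.13 and 0.635). Rasgrp2 passed the filter in total OT-I cells only through its WT-labelled libraries. For Spry2 the nearest Ttex libraries were at 490.2 (KO-labelled) and 489.8 (WT-labelled) normalized counts. Of all tested genes, 56.6% had both KO-labelled values below both WT-labelled values in total OT-I cells and 9.43% above. In Ttex cells 28.2% lay below and 19.9% above, and genes with opposite orders in the 2 populations were not counted over all genes. The difference between the populations was not tested for any of these genes. None of them was called by limma in Ttex cells. In total OT-I cells Ptpn7 (limma adjusted p = 0.0740), Dgka, Sla and Rasgrp2 were not called either.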

How the results depend on the processing

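Dusp2 and Dusp5 kept their direction and their call under all 13 alternatives tried in total OT-I cells, with log2 fold changes from -1.73 to -1.26 and from -1.53 to -1.19, and Spry2 in 12 of 13 (-1.05 to -0.56). Leaving out each library in turn gave log2 fold changes of -1.55 to -1.47 for Dusp2, -1.53 to -1.35 for Dusp5 and -1.05 to -0.58 for Spry2 in total OT-I cells. Without WT-labelled replicate 1 Spry2 was not called, and without KO-labelled replicate 1 Dusp1 was. The uncalled genes Dusp1, Dusp4, Dusp10 and Spry1 changed sign under 1 or more alternatives in total OT-I cells, and Dusp1, Dusp10 and Spry1 did so in Ttex cells. With a stricter filter (5 FPKM), which left 50 pathway genes to test, 15 were called in total OT-I cells. The share of all genes called under that filter is not given here. In Ttex cells DESeq2 on recovered reads called 2 pathway genes, where 3.11% of all genes were called, and the cause was not tested.

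Same-numbered libraries deviated together (correlation 0.299 over 9574 genes in total OT-I cells and 0.139 over 12559 in Ttex cells), but there are only 2 pairs, and whether a number marks a shared host is not given, so the numbers were not taken as a pairing. With the replicate block Dusp2 was called lower in Ttex cells (1 of 8 genes, where 6.72% of all genes were called), and 6 of the pathway genes were called there. In total OT-I cells the block left 3 of 8 genes called, all lower, where 36.7% of all genes were called lower and 3.41% higher. The 142 reads of Dusp2 in the shallowest case limit the precision of its level.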

Other observations

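Spred3, a relative of the Sprouty genes, had the highest log2 fold change of the pathway genes in Ttex cells, and it is named here after its values were seen. Its normalized counts were 43.1 and 65.0 in the KO-labelled pair and 5.65 and 11.3 in the WT-labelled pair. The log2 fold change was 2.58, and the gene was not called by limma. Its WT-labelled mean of 8.48 lay below the filter, which it passed only through its KO-labelled libraries, so no p-value is given. In total OT-I cells Spred3 was below the filter, at 0.135 and 0.201 FPKM in KO-labelled and 0.0832 and 0.153 FPKM in WT-labelled libraries. Dusp18, an atypical dual-specificity phosphatase gene, had normalized counts of 223 and 211 in the KO-labelled and 90.4 and 51.8 in the WT-labelled Ttex pair (log2 fold change 1.65, SE 0.41, limma adjusted p = 0.243).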
